A study of Mus musculus with 2 samples.

Results

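The genes described here are TCF, E protein and quiescence factors, a set of transcriptional regulators of T cells made of HMG box factors, E proteins, the ID inhibitors of E proteins and factors that restrain effector differentiation. They were chosen by name, as all probe sets annotated to exactly 1 of 10 gene symbols (Tcf7, Lef1, Satb1, Bach2, Dapl1, Tcf3, Tcf4, Tcf12, Id2 and Id3) in a rule that uses no measured value, although the set was put together with earlier results of these data known. This gave 29 probe sets of 9 genes, out of 45101 probe sets on the array and 18193 genes with a probe set of their own. For Tcf7 no probe set carried the symbol in the annotation used, and its expression is not analysed here. Messenger RNA was measured on Affymetrix Mouse Genome 430 arrays in CD4+GFP+FoxP3+ cells and in CD4+GFPnegFoxP3neg cells, called GFP+ and GFPneg cells from here on, with 1 array per group. Both populations came from DEREG mice, which carry GFP under the Foxp3 promoter, so the GFPneg cells hold the transgene too. Negative selection for CD4+ T cells was followed by a flow cytometry sort on GFP. The sort reads the transgene rather than the Foxp3 protein. The labels give neither the organ, the treatment, nor the age and number of mice.

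The HMG box factors TCF-1 and LEF-1, encoded by Tcf7 and Lef1, bind DNA through an HMG domain and turn target genes on or off with beta-catenin or Groucho/TLE partners, and they are known for building T cell identity in the thymus and for keeping naive and memory T cells. E proteins (from Tcf3, Tcf4 and Tcf12) are basic helix-loop-helix factors that pair with each other on E-box DNA, whereas ID proteins lack the basic region and hold E proteins off DNA. SATB1 folds chromatin in T cells, and BACH2 represses effector genes at AP-1-like sites. Regulatory T cells are known to need several of these factors, among them BACH2 for their stability and ID2 and ID3 for their maintenance.

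The sequences around the start of 3 of these genes are shown because they had the largest differences in either direction, Dapl1 and Bach2 with lower signals in GFP+ cells and Id2 with a higher one. Each window runs from 250 bases before to 50 bases after the RefSeq transcription start on GRCm38.p6, 5′ to 3′ on the gene's strand. Capitals mark the E-box letters CAGCTG or CACCTG on either strand.
Dapl1, chr2:59484403-59484702, plus strand: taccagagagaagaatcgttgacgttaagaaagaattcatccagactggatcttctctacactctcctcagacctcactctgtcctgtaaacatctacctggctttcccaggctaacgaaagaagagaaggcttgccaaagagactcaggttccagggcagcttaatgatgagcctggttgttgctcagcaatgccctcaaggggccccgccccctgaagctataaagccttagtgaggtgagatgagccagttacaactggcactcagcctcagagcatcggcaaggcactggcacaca
Bach2, chr4:32417185-32417484, plus strand: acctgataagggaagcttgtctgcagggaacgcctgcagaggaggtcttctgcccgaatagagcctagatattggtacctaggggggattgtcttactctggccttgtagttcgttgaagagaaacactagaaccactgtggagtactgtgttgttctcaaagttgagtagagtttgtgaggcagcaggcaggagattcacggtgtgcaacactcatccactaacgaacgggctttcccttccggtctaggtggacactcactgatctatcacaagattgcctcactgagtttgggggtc
Id2, chr12:25096043-25096342, minus strand: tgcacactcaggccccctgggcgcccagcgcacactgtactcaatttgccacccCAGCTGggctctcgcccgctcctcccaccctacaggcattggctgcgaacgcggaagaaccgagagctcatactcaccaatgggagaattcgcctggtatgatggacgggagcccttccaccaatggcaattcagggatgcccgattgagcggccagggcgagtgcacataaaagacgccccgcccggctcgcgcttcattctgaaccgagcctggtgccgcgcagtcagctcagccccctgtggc
The Id2 window holds 1 such match, CAGCTG, starting 196 bases before the transcription start, and the Dapl1 and Bach2 windows hold 0. Among all 32851 promoter windows of 300 bases, 32.9% hold at least 1 of these letters, as do 8 of the 19 windows of the listed genes. These 19 windows include Tcf7, which has no signals here, and none of Tcf4. The HMG box letters CTTTGAT or CTTTGAA, searched on both strands as well, occur in 8.65% of all windows and in 0 of the 19 windows found for 9 of the listed genes. The AP-1-like letters TGAGTCA occur in 5.20% of all windows and in 1 of these 19, a Tcf12 window. These matches describe letters only and were not tied to any measurement here.

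Most of these regulators had similar signals in both populations. Dapl1 had a 2.06-fold lower signal in GFP+ cells, and Bach2 a 1.61-fold lower and Id2 a 1.38-fold higher one by their brightest probe sets. By the same measure Satb1 was 1.24-fold lower, and Id3 and Tcf3 differed by 1.06-fold. Lef1, Satb1, Bach2, Tcf12 and Id2, the 5 genes with more than 1 probe set above background, each had probe sets in both directions. Tcf4 had no probe set above background in GFP+ cells. The signals are MAS5 intensities on a linear scale, which the authors had scaled between the arrays. A signal was taken as above background if it exceeded 66.67, the 90th percentile of the signals of genes chosen as restricted to other tissues. By their brightest probe sets 13 of these 63 genes were above it on at least 1 array, among them Mbp (684.3 in GFP+ and 1289.5 in GFPneg cells). Lower signals were raised to that floor before log2 was taken. Every difference is the log2 signal in GFP+ cells minus that in GFPneg cells. With 1 array per group no test was possible and no error between animals or sorts is known. As a yardstick of scatter within the arrays, the differences of probe sets within a gene had a standard deviation of 0.39 log2 over 7809 probe sets of 3090 genes. In sorted bulk samples, fewer cells that express a gene and less of its RNA per cell cannot be told apart.

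**Figure D1:**
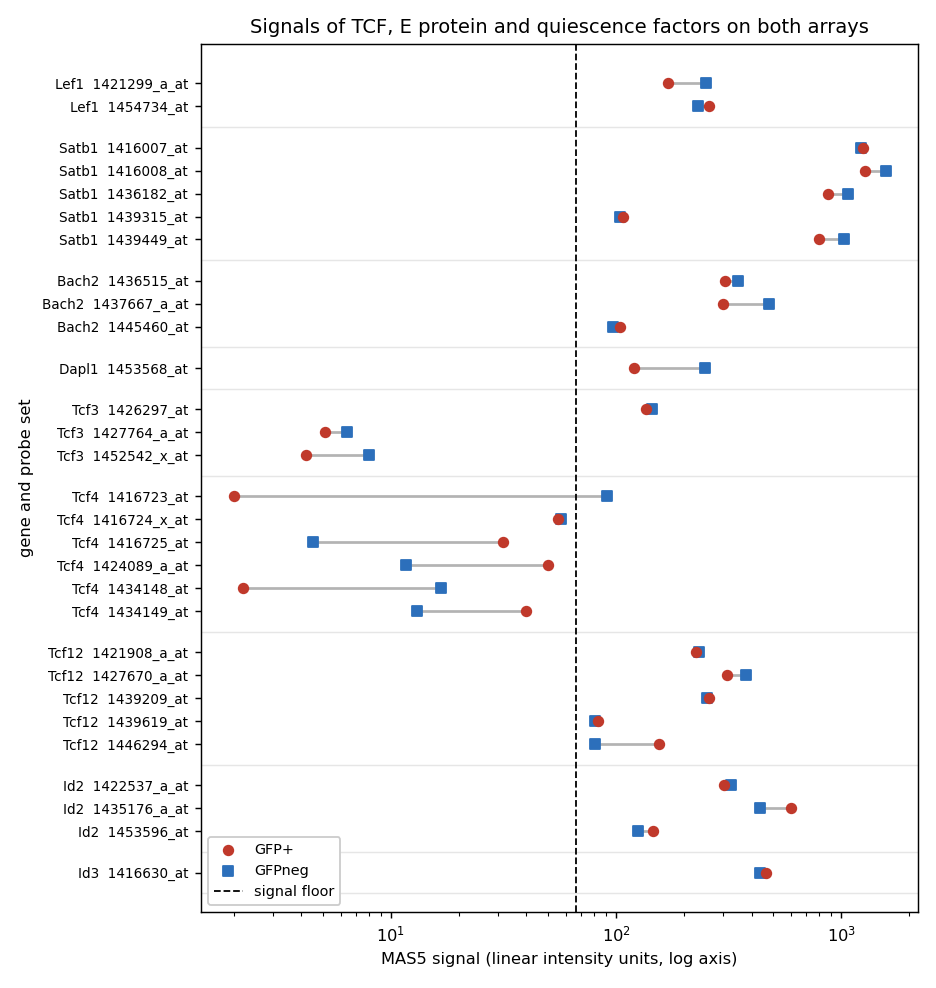
MAS5 signal (log axis) of each of the 29 probe sets, 1 row per probe set, in GFP+ (circles) and GFPneg cells (squares), with the floor of 66.67 as a dashed line. For 22 probe sets at least 1 signal lies above the floor, and 5 of the 6 Tcf4 and 2 of the 3 Tcf3 probe sets lie below it on both arrays.

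Of the 29 probe sets, 22 were above the floor on at least 1 array and 21 on both. Of these 22, 10 were higher and 12 lower in GFP+ cells, with a median difference of −0.07 log2, against 0.0050 over all 16669 probe sets tested. At least 2-fold lower in GFP+ cells was 1 of the 22, against a background of 1.57% of all tested probe sets, and 0 were at least 2-fold higher, against 1.89%. Within 1.5-fold lay 19 of the 22, or 86.4%, against 82.5% of all tested probe sets. By gene, represented by its brightest probe set, 3 of 8 were higher and 5 lower, and their median difference was −0.18 log2. Of all 9917 tested genes, 51.4% had a lower signal in GFP+ cells (median −0.01 log2). At least 2-fold lower was 1 of the 8 genes (background 1.61%) and at least 2-fold higher 0 (background 1.61%). The shares past 2-fold rest on at most 1 gene and are too few to set apart from the background.

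**Figure D2:**
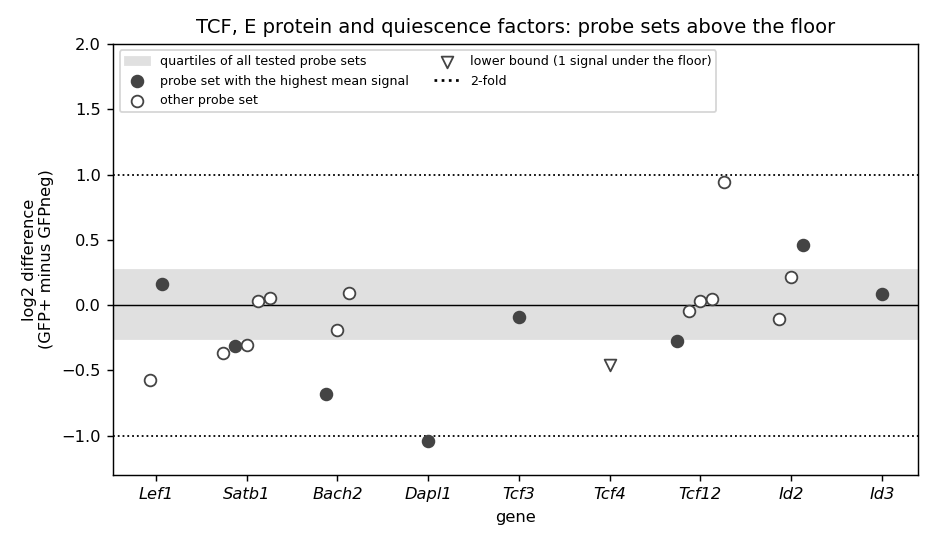
Log2 difference (GFP+ minus GFPneg) of the 22 probe sets above the floor, by gene, with the brightest probe set of each gene filled. The grey band holds the middle of all tested probe sets, from −0.26 to 0.27, and dotted lines mark 2-fold. Dapl1 is the point at −1.04, and Lef1, Satb1, Bach2, Tcf12 and Id2 have points on both sides of 0.

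Beyond 1 standard deviation of the scatter within genes lay 6 of the 22 probe sets, 1 of them a lower bound for Tcf4. Beyond 2 such deviations lay 2, those of Dapl1 and 1 probe set of Tcf12. Of all tested probe sets, 36.9% differed by at least 0.36 log2 in size and 27.3% by at least 0.46, sizes on either side of 1 deviation. A size of at least 0.68 log2 was reached by 12.2%, and of at least 0.94 by 4.48%, on either side of 2 deviations. Both counts of the set were thus near the shares over all tested probe sets. RNA quality measures also differed: the 3′ to 5′ signal ratio was 5.30 in GFP+ and 3.57 in GFPneg cells for Actb, and 9.27 and 6.24 for Gapdh. A higher ratio means less signal from the 5′ end. Its part in the differences between probe sets of a gene was not tested.

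Lef1 encodes LEF-1, the HMG box partner of TCF-1 in T cell development. Probe set 1421299_a_at gave a signal of 169.5 in GFP+ and 252 in GFPneg cells, a difference of −0.57 log2. Probe set 1454734_at gave 258 in GFP+ and 231.1 in GFPneg cells, a difference of 0.16 log2. The direction for Lef1 therefore depends on the probe set, and the mean over both was −0.21 log2. The standard deviation of the 2 differences was 0.52 log2, above the 0.39 of probe sets of a gene in general.

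Satb1, whose protein organises chromatin loops and is abundant in thymocytes, had 5 probe sets above the floor on both arrays. The brightest, 1416008_at, gave 1271.1 in GFP+ and 1579.7 in GFPneg cells, a difference of −0.31 log2. Probe sets 1436182_at (871.1 in GFP+ and 1076.7 in GFPneg cells) and 1439449_at (796 and 1024.9) were lower in GFP+ cells by a similar amount, −0.31 and −0.36 log2. Probe set 1416007_at gave 1255.5 in GFP+ and 1227.4 in GFPneg cells, and 1439315_at gave 107.6 and 103.7, differences of 0.03 and 0.05. Satb1 was thus lower in GFP+ cells by 3 of its probe sets, each by less than the scatter of 0.39 log2, and level by the other 2. Of all tested probe sets, 36.9% to 44.1% differed by at least as much as these 3 in either direction. The 5 differences of Satb1 had a standard deviation of 0.20 log2 and a median of −0.31.

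Bach2 encodes a repressor that competes with AP-1 factors and holds back effector differentiation. Its brightest probe set, 1437667_a_at, gave 298.9 in GFP+ and 480.4 in GFPneg cells, a difference of −0.68 log2. Of all tested probe sets, 12.2% differed by at least as much in either direction. Probe set 1436515_at gave 305.1 in GFP+ and 349.1 in GFPneg cells (−0.19 log2), and 1445460_at gave 103.7 and 97.2 (0.09 log2). The larger difference of Bach2 was thus carried by 1 of its 3 probe sets, and the mean over all 3 was −0.26 log2.

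Dapl1, a small protein gene named for its likeness to death-associated protein, is known as a transcript of naive T cells. Its only probe set, 1453568_at, gave 120.3 in GFP+ and 248 in GFPneg cells. The difference was −1.04 log2, or 2.06-fold lower in GFP+ cells, and 2.89% of all tested probe sets differed by at least as much in either direction. Dapl1 was the gene of the set past 2-fold, by a narrow margin, and no second probe set was there to compare it with. Of 119 probe sets of the background genes, 5 reached its signal on the GFP+ and 3 on the GFPneg array. With the floor doubled to 133.3 the GFP+ signal lay under it, and the difference was at least 0.90 log2 in size (−0.90), short of 2-fold.

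**Figure D3:**
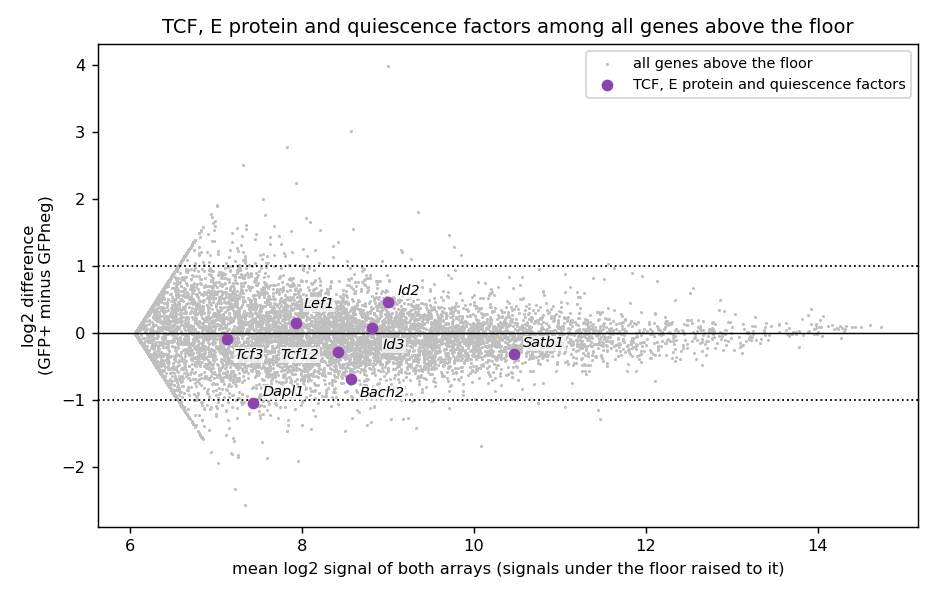
Log2 difference (GFP+ minus GFPneg) against the mean log2 signal of both arrays for the 9917 genes above the floor (grey) and the 8 TCF, E protein and quiescence factors among them, each by its brightest probe set. Dapl1 sits at −1.04 just past the 2-fold line, and the other 7 sit between −0.68 and 0.46.

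Among the E proteins, 7 of 14 probe sets were above the floor, 3 of them higher and 4 lower in GFP+ cells, with a median of −0.05 log2. Tcf12 encodes HEB, which pairs with E2A in thymocytes. Its brightest probe set, 1427670_a_at, gave 311 in GFP+ and 376.6 in GFPneg cells (−0.28 log2). The probe sets 1421908_a_at (226.2 in GFP+ and 233.5 in GFPneg cells), 1439209_at (258.6 and 253.7) and 1439619_at (83.1 and 80.3) differed by at most 0.05 log2 in size. The fifth, 1446294_at, stood apart with 155.4 in GFP+ and 81 in GFPneg cells, 1.92-fold higher or 0.94 log2. Its GFPneg signal was near the floor of 66.67, and 6 of the 119 background probe sets reached it on that array. Of all tested probe sets, 4.48% differed by 0.94 log2 or more in either direction. Since the other 4 probe sets of Tcf12 lay between −0.28 and 0.05, this value describes 1 probe set and not the gene.

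Tcf3 encodes E2A, whose splice forms E12 and E47 start T and B cell programmes. Probe set 1426297_at gave 135.7 in GFP+ and 144.2 in GFPneg cells, a difference of −0.09 log2. The other 2 probe sets were under the floor, with 5.1 and 4.2 in GFP+ cells and 6.4 and 8 in GFPneg cells, so no fold is given for them. By its probe set above background, Tcf3 was near level between the populations.

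Tcf4 encodes E2-2, the E protein known for plasmacytoid dendritic cells and B cells. On the GFP+ array its 6 probe sets gave signals from 2 to 55, all under the floor. On the GFPneg array they gave 4.5 to 91.5, and probe set 1416723_at alone was above the floor there, with 91.5 against 2 in GFP+ cells, which is at least 1.37-fold lower in GFP+ cells. On the GFPneg array 6 of the 119 background probe sets reached that signal. The next Tcf4 probe sets gave 55 in GFP+ and 57.2 in GFPneg cells (1416724_x_at), and 49.7 and 11.7 (1424089_a_at), in no common direction. Tcf4 was thus at or near background in both populations. Of 6 plasmacytoid dendritic cell markers measured, 4 were above the floor, and the defining marker Siglech was below it (4.8 in GFP+ and 9.9 in GFPneg cells). Among the 4, Pacsin1 gave 306.4 in GFP+ and 344.7 in GFPneg cells, with a second probe set higher in GFP+ cells (0.48 log2). All 6 together summed to 687.1 in GFP+ and 741.8 in GFPneg cells. Of 11 B cell markers measured, 3 were above the floor, and they went both ways. Ighm (1880.7 in GFP+ and 4139 in GFPneg cells, −1.14 log2) and Cd22 (98.3 and 235.1, −1.26 log2) were lower in GFP+ cells, and Cd79b (221.9 and 70.8, 1.65 log2) was higher. Other Ighm probe sets ran from −1.23 to 0.62 log2. The other 8 were below the floor and also went both ways. Of these, Pax5 (16.7 in GFP+ and 37.6 in GFPneg cells), Cd79a (14 and 47.6), Fcer2a and Cr2 had lower signals in GFP+ cells. Ms4a1 (59.7 and 46.4), Blk (55.5 and 33), Ebf1 (48.1 and 22.5) and Spib (26.9 and 11.8) had higher ones. All 11 together summed to 2443 in GFP+ and 4700 in GFPneg cells. Nearly all of the gap between these sums was that of the 1 Ighm probe set given above. The part of these cells in the Tcf4 signals was not tested.

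The ID inhibitors had 4 probe sets, all above the floor, 3 higher and 1 lower in GFP+ cells, with a median of 0.15 log2. Id2, which is high in innate lymphoid, NK and effector T cells, gave 601.8 in GFP+ and 436.5 in GFPneg cells by its brightest probe set, 1435176_a_at, a difference of 0.46 log2. Probe set 1453596_at gave 145.6 in GFP+ and 125.7 in GFPneg cells (0.21 log2), and 1422537_a_at gave 301.2 and 324.7 (−0.11 log2). Of all tested probe sets, 26.6% differed by at least as much as the brightest of Id2 in either direction. The 3 differences had a mean of 0.19 and a standard deviation of 0.29 log2. Of 8 markers of CD8 T and NK cells, which also use Id2, 4 were above the floor, and all 8 summed to 2211 in GFP+ and 2429 in GFPneg cells. Gzma (1152.9 in GFP+ and 850.5 in GFPneg cells, 0.44 log2) and Klrd1 (148.5 and 103.5, 0.52 log2) were higher in GFP+ cells, and Nkg7 (723.7 and 1221.7, −0.76 log2) was lower. Their part in the Id2 signals was not tested. Cd8a (31.5 and 55.7) and Ncr1 (1.7 and 5.9) were below the floor on both arrays.

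Id3, which holds E proteins in check in naive and regulatory T cells, had a single probe set, 1416630_at. It gave 462.3 in GFP+ and 437 in GFPneg cells, a difference of 0.08 log2, and 82.9% of all tested probe sets differed by at least as much. The populations were near level for Id3. Neither ID gene nor any E protein gene passed 2-fold by its brightest probe set.

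Partners of the HMG box factors leaned towards lower signals in GFP+ cells. Of 13 TCF and LEF partners above the floor, out of 16 measured, 3 were higher and 10 lower. The median was −0.33 log2 against −0.01 over all tested genes, and 0 passed 2-fold. For this and the lists below, the background was 51.4% of all tested genes lower and 1.61% past 2-fold in each direction. Axin2, a feedback inhibitor and target of beta-catenin signalling, gave 79.1 in GFP+ and 152.8 in GFPneg cells (−0.95 log2). Apc, part of the complex that degrades beta-catenin, gave 293.9 in GFP+ and 536.9 in GFPneg cells (−0.87 log2), but its second probe set was higher (0.33 log2). The Groucho family gene Tle3 gave 316.2 in GFP+ and 462.5 in GFPneg cells (−0.55 log2), again with a second probe set higher (0.18 log2). When each gene's probe sets were averaged, the median of the partners was −0.07 log2, and with the floor at the 75th percentile of the background signals it was −0.03. Beta-catenin itself, Ctnnb1, named after its values were seen, gave 3891 in GFP+ and 3975 in GFPneg cells (−0.03 log2) by its brightest probe set, with its other 2 at −0.95 and 0.05 log2.

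Other genes of the E protein network went both ways. Of 8 above the floor, out of 14 measured, 4 were higher and 4 lower; the median was −0.02 log2, a sign that turned under 5 of 7 alternative settings. The E-box repressor gene Zeb1 gave 942.8 in GFP+ and 767.6 in GFPneg cells (0.30 log2), with other probe sets from −0.30 to 0.08. Its relative Zeb2 was higher by at least 1.35-fold, with 89.8 in GFP+ and 64.1 in GFPneg cells. Notch1, which acts with E proteins in early T cell development, gave 734.2 in GFP+ and 936.9 in GFPneg cells (−0.35 log2), with a second probe set at 0.11. The inhibitor gene Id1 (4 in GFP+ and 14.5 in GFPneg cells) was below the floor on both arrays.

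Of 6 chromatin partners of SATB1, 2 were higher and 4 lower; their median was −0.20 log2, and 0 passed 2-fold. Smarca4, the ATPase of a nucleosome remodelling complex, gave 579.2 in GFP+ and 863.7 in GFPneg cells (−0.58 log2), and its second probe set was lower as well (−0.36 log2). Ctcf (−0.26 log2) and Hdac3 (−0.22 log2) differed less, and a second Ctcf probe set was higher (0.19 log2). Of 9 BACH2 partners and AP-1 factors, 3 were higher and 6 lower; their median was −0.04 log2, and 0 passed 2-fold. Batf, an AP-1 factor of effector cells, gave 631.3 in GFP+ and 851.3 in GFPneg cells (−0.43 log2). The small MAF gene Mafk, a dimer partner of BACH2, gave 262 in GFP+ and 195.4 in GFPneg cells (0.42 log2). Nfe2l2, which binds the same kind of site with small MAF proteins, was lower (−0.46 log2).

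Quiescence and naive T cell genes outside the set leaned lower, with 4 higher and 9 lower of 13 and a median of −0.16 log2 against −0.01 over all tested genes, and 0 passed 2-fold. Slfn2, which is needed for T cell quiescence, gave 3009.6 in GFP+ and 4154.1 in GFPneg cells (−0.46 log2). Txnip, a restraint on glucose uptake, gave 2001.9 in GFP+ and 2717.5 in GFPneg cells (−0.44 log2), with a second probe set at −0.05. Tsc22d3, a glucocorticoid-induced gene, differed by −0.35 log2 by its brightest probe set and by 0.39 and 0.59 by its other 2. Under the alternative settings the median of this list ranged from −0.16 to −0.04. Cell cycle genes leaned the other way, with 9 higher and 2 lower of 11, a median of 0.17 log2 and 0 past 2-fold. Of all tested genes, 51.4% were lower, and 1.61% passed 2-fold in each direction. Mcm2 gave 289.7 in GFP+ and 475 in GFPneg cells (−0.71 log2), with a second probe set at 0.18. Bub1, a mitotic checkpoint kinase gene, gave 207.5 in GFP+ and 148.9 in GFPneg cells (0.48 log2), and Tyms was at least 1.37-fold higher with a second probe set at −0.22 log2.

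**Figure D4:**
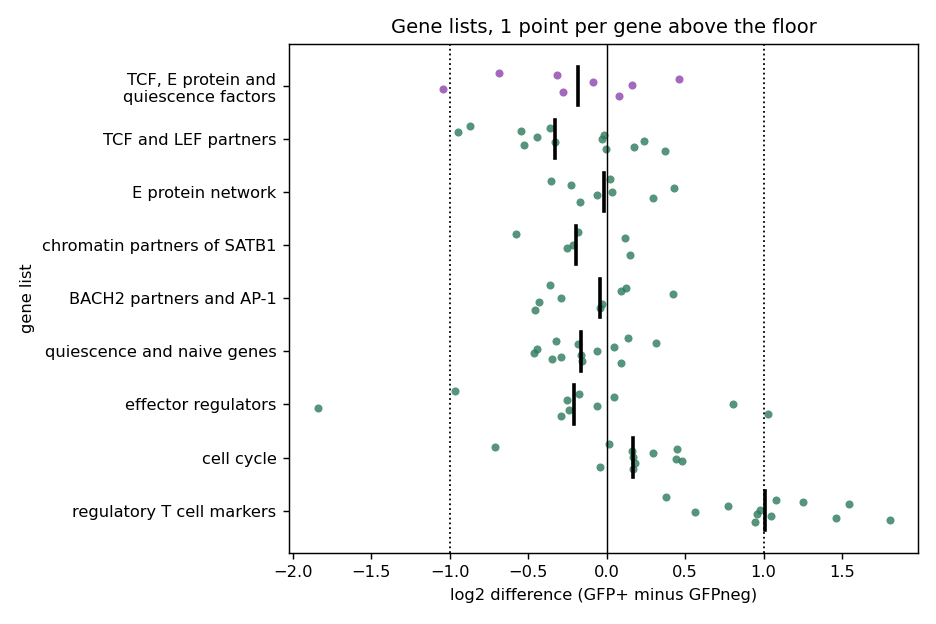
Log2 difference (GFP+ minus GFPneg) of each gene above the floor in the TCF, E protein and quiescence set and in 8 other gene lists, 1 point per gene by its brightest probe set, with black bars at the list medians and dotted lines at 2-fold. The set has a median of −0.18, the TCF and LEF partners −0.33, and the regulatory T cell markers 1.01, with all 12 of these markers above 0.

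The regulatory T cell markers went with the labels. Foxp3 gave 504.4 in GFP+ and 173.2 in GFPneg cells (1.54 log2). All 12 regulatory T cell markers were higher in GFP+ cells, 6 of them at least 2-fold, with a median of 1.01 log2. Of all tested genes, 1.61% were at least 2-fold higher, and the median was −0.01 log2. The GFPneg Foxp3 signal was above the floor. All 9 general T cell markers measured were above the floor on at least 1 array, 2 higher and 7 lower in GFP+ cells. Their median was −0.25 log2, below the −0.18 of the set's genes. The largest differences were those of Cd247 (−0.97 log2, with a second probe set at 1.09), Cd4 (−0.69) and Cd3e (−0.67). Cd8b1 (100.4 in GFP+ and 115.2 in GFPneg cells) was the 1 of 8 immature thymocyte markers above the floor, and Rag1, Rag2, Ptcra and Dntt were below it. Myeloid and dendritic cell markers were above it in 2 of 12 cases and erythroid and platelet markers in 3 of 8. The median signal was 46.9 on the GFP+ and 40.8 on the GFPneg array.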

How the data were processed

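The authors hybridised 1 Affymetrix Mouse Genome 430 array per sample and deposited 1 linear intensity per probe set, made with MAS5, as the submitters' processing notes state. No source used here gives its version or settings, and detection calls are not used here. The 2% trimmed mean was 150.0 on both arrays, so they had been scaled before deposit, and no further normalization was applied. The number of arrays limits the precision.

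The platform annotation paired 34958 probe sets with 1 symbol, 932 with several and 9211 with none. Those without a single symbol, and 64 control probe sets, entered no gene comparison. Symbols were checked through gene identifiers, which altered 0. A gene was represented by its brightest probe set (mean log2 over both arrays). The floor came from 119 probe sets of 63 genes chosen as tissue-restricted. Genes were counted past 2-fold, with no test.

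The genes and the 15 other gene lists were chosen with earlier results of these data known. The naming rule took every gene of the set, Foxp3 and up to 3 genes with the largest difference per list. Those of the cell type marker lists are given mainly as counts. Ctnnb1, and the genes of the other lists given as below the floor, were named outside this rule. Alternatives varied the floor, the scaling (quantile normalization, loess with a span of 0.3) and the handling of probe sets. The steps were tested on simulated data with changes larger than 2-fold, planted in genes well above the floor. That run does not cover smaller differences or signals near the floor. Python 3.11.15, numpy 2.4.6, pandas 2.3.3 and statsmodels 0.14.6 were used. Promoter windows came from RefSeq (GRCm38.p6) for 9 of the 10 listed genes, all but Tcf4.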

Additional observations from a re-analysis of the deposited data

How the results depend on the processing

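With the floor doubled, 0 of 18 probe sets and 0 of 8 genes of the set were at least 2-fold lower in GFP+ cells. The Dapl1 signal in GFP+ cells then lay under the floor. Over all features the shares at least 2-fold lower were 0.73% of probe sets and 0.83% of genes. With no floor, 3 probe sets were at least 2-fold lower and 3 at least 2-fold higher, against 15.7% and 20.8% of all probe sets, because signals at background then count. With the floor at the 75th percentile (36.65), 2 of 25 probe sets were at least 2-fold lower, against 3.43% of all probe sets. At least 2-fold higher were 0, against 5.59%. The median of the set's genes stayed between −0.18 and −0.09 log2 over the 7 alternatives. Under quantile normalization and loess every gene of the set above the floor kept its sign. Averaging all probe sets of a gene gave −0.26 log2 for Bach2, 0.14 for Tcf12 and −0.21 for Lef1, the last 2 with the opposite sign to their brightest probe sets; Dapl1, Id2, Id3 and Satb1 kept their sign in all 7 and Tcf3 in the 6 that gave a value. The B cell marker median of −1.14 log2 became 1.10 with probe sets averaged and 0.16 with the floor at the 75th percentile; the cause was not tested. No replicate could be left out, and no paired analysis was possible because each group is 1 array and no test was run. Differences among signals near the floor cannot be resolved with these arrays.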

Other observations

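Regulators of effector differentiation, which several of the factors above are known to oppose, went both ways. Of 10 above the floor, 3 were higher and 7 lower in GFP+ cells (median −0.21 log2), 1 at least 2-fold higher and 1 at least 2-fold lower. Of all tested genes, 51.4% were lower (median −0.01 log2), and 1.61% passed 2-fold in each direction. Hopx, a homeodomain-only cofactor gene, gave 4288.2 in GFP+ and 2106.8 in GFPneg cells (1.03 log2), and its second probe set was higher as well (1.26 log2). Eomes, a T-box factor gene of cytotoxic programmes, gave 80.4 in GFP+ and 288.1 in GFPneg cells (−1.84 log2), with a second probe set at −0.91 log2. Bcl6, a BTB domain repressor that directs follicular helper T cells, gave 203.3 in GFP+ and 396.5 in GFPneg cells (−0.96 log2).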
